A study of Arabidopsis thaliana with 24 samples.

Results

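The chalcone synthase (CHS) mutant tt4 was compared with the wild type Col-0 of Arabidopsis thaliana, using the 3 arrays titled tt4 and the 3 titled Col-0 out of 24 arrays of 8 genotypes. Both groups were chosen by their titles, and all 22746 probe sets of the Affymetrix ATH1 GeneChip other than the manufacturer's controls entered the comparison. The series sets plants that overaccumulate flavonoids beside plants that lack them. RNA came from the aerial parts of 3-week-old plants, raised on agar plates with sucrose at 22 °C under long days. Col-0 carries no transgene or mutation by its label, and tt4 is a CHS mutant in the Col-0 background that carries no overexpressed regulator. The label gives neither the allele of tt4 nor its zygosity. The other genotypes are MYB12OX and pap1-D, which overexpress the flavonoid regulators MYB12 and PAP1, their crosses WOX1-1 and WOX1-2, and the combinations MYB12OX/tt4 and pap1-D/tt4. They are used below only to show where the difference between tt4 and Col-0 recurs. Whether the 3 arrays of a genotype hold RNA of different plants is not stated in the labels. The p-values therefore measure only the spread between arrays, which may be technical. The growth text also mentions a drought experiment at 21 °C that no label ties to an array.

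CHS condenses a phenylpropanoid precursor with malonyl units into the chalcone from which all flavonoids are built. In leaves its products are mainly flavonol glycosides, which screen ultraviolet light, and anthocyanins, the red pigments. Mutants of this enzyme are pale-seeded, because the brown tannins of the seed coat are flavonoids as well, and flavonols are also known to slow the transport of the hormone auxin. The CHS transcript has no probe set named for it alone in the probe annotation, and the mutated gene itself was not analysed here.

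Levels are MAS5 signals in arbitrary units, and differences are tt4 minus Col-0 on the log2 scale with the SE of the limma fit. A gene rose or fell where its Benjamini-Hochberg adjusted p from limma, over all 22746 probe sets, was under 0.05. The correlation across probe sets was 0.958 to 0.962 between Col-0 arrays, 0.956 to 0.958 between tt4 arrays and 0.942 to 0.951 between the genotypes. Median signals lay between 170.7 and 177.4 on these 6 arrays and between 164.3 and 177.4 on all 24. The green-tissue genes RCA and PRK, which serve carbon fixation, read 11530 to 26016 on the 6 arrays. Of 3 root, 1 seed and 2 flower markers that could be named, none was called by limma and 2 of the 6 had an unadjusted p under 0.05. No group mean of these markers passed the chip's median signal of 171.1.

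One property of the arrays touches every result below. In the submitters' sample list Col-0 stands first and tt4 last, and the first principal component (37.63% of the variance) followed that order, from -28.83, -24.71 and -22.02 on the Col-0 arrays to 18.87, 20.59 and 22.29 on the tt4 arrays. Within each genotype the array numbered 3 lay above that numbered 1, and lines that carry CHS lay between both ends. With the place in the listing as a covariate only 42 probe sets were called, but that fit has an SE of 5.31 residual standard deviations against 0.816 without it. Of the 100 genes named in the text 57 had the other sign in that fit, and 1 of them, AT3G21670, was called there (2.54, adjusted p = 0.049). An additive model of both regulators, their combination and the loss of CHS was also fitted. With the place its SE was 1.5 residual standard deviations, against 0.471 without. It then called 2 probe sets (6% at an unadjusted p under 0.05), and 48 of the 100 genes had the other sign. The labels do not say what the listing order stands for. Genotype and place cannot be told apart for these 6 arrays, and the word "rose" or "fell" below says only on which side tt4 lay.

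In all, 5176 probe sets (22.8%) were called, 2668 higher in tt4 (11.7%) and 2508 lower (11.0%), and 880 of them (3.87%) differed at least 2-fold, 307 upwards (1.35%) and 573 downwards (2.52%). The arrays of both genotypes did not overlap in 8408 probe sets (37.0%). Among 13344 named genes 2730 were called (20.5%), 1432 higher (10.7%) and 1298 lower (9.73%). These shares are the background for the gene groups below, but they depend on signal level. A separate fit was made of the 14921 probe sets with a signal above 85.5 on at least 3 arrays. With adjustment over these alone 5423 were called, a larger share, but the filter and the adjustment changed together. A mean above the chip's median in at least 1 of both genotypes was reached by 6279 of the 13344 named genes. Of the chloroplast genome list 66 of 69 reached it, and of the amino acid breakdown list 11 of 11. Such lists were not set against genes of like signal. All gene lists and their members were chosen with earlier results of these data known, so their counts are a description. Leaving out 1 of the 6 arrays gave 4062 to 4698 called probe sets.

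**Figure D1:**
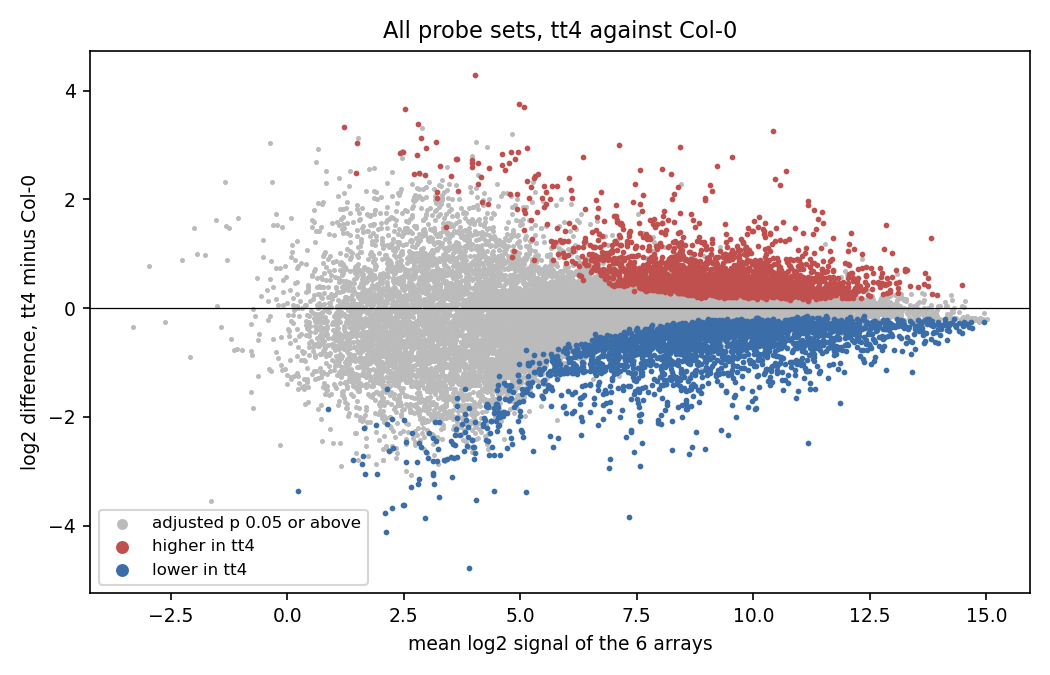
Each point is a probe set; the x axis is its mean log2 signal over the 6 arrays and the y axis its log2 difference, tt4 minus Col-0. Red points (2668) are higher and blue points (2508) lower in tt4 at an adjusted p under 0.05, and grey points did not pass.

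Most of the measured genes that act after CHS in flavonol synthesis were lower in tt4. Of 4 flavonol glycosylation genes 3 fell and none rose, and the list's median was -0.594 against -0.0558 over all named genes. AT1G06000, which adds rhamnose at the seventh position of flavonols, read 113, 132 and 102 on the Col-0 arrays and 35.2, 19.6 and 53.1 on the tt4 arrays, and fell by 1.79 ± 0.33 (adjusted p = 0.000309). The groups did not overlap, and the tt4 levels were among the dim signals of the chip. UGT78D1, the flavonol rhamnosyltransferase of the third position, read 454, 435 and 338 in Col-0 and 293, 212 and 276 in tt4 (-0.65 ± 0.21, adjusted p = 0.0294). UGT78D2, which glucosylates flavonols and anthocyanins, read 341, 258 and 344 in Col-0 and 244, 164 and 249 in tt4 (-0.53 ± 0.16, adjusted p = 0.0157). For both genes the groups stood apart by little, and the calls rested on single arrays. UGT78D1 lost its call without Col-0 replicate 1 (-0.57, adjusted p = 0.114), Col-0 replicate 2 (-0.60, adjusted p = 0.0938) or tt4 replicate 2 (-0.51, adjusted p = 0.144). UGT78D2 lost its call without Col-0 replicate 1 (-0.47, adjusted p = 0.0734), Col-0 replicate 3 (-0.46, adjusted p = 0.0704) or tt4 replicate 2 (-0.34, adjusted p = 0.136). The arabinosyltransferase gene UGT78D3 was near the floor at 2.29 to 14.3 and did not pass (0.17 ± 0.65). RNA here comes from whole aerial parts, so fewer cells of a type and less RNA per cell cannot be told apart.

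Of the anthocyanin branch, 1 of 4 genes fell. UF3GT, the xylosyltransferase of anthocyanins, read 47.5, 80.0 and 79.9 in Col-0 and 22.4, 34.2 and 40.0 in tt4 (-1.10 ± 0.26, adjusted p = 0.00269), so all 3 tt4 arrays lay below the Col-0 arrays. On the compared genotypes alone this call was lost (adjusted p = 0.072). DFR, the reductase that commits the pathway to anthocyanins, was dim and scattered, at 14.8 to 73.6 in Col-0 and 8.78 to 37.2 in tt4 (-0.43, adjusted p = 0.567). The malonyltransferase gene AT5MAT was at -0.88 (adjusted p = 0.176) and the glucosyltransferase gene AT4G14090 at -0.57 (adjusted p = 0.508). CHIL, which helps chalcone isomerase, was at -0.29 (adjusted p = 0.784), at -1.10 in the MYB12OX plants (adjusted p = 0.295) and at -1.84 in the pap1-D plants (adjusted p = 0.0507). An additive model over all genotypes, without the place in the listing, called it (-1.08, adjusted p = 0.0192). With the place that model called 0 list genes. Around the entry of the pathway, HCT, the acyltransferase that leads from phenylpropanoids to lignin, fell by 0.46 ± 0.07, from 2251 to 2475 in Col-0 to 1659 to 1813 in tt4. ALDH2C4, the dehydrogenase that makes sinapate and ferulate, rose by 0.51 ± 0.07, from 2381 to 2548 to 3332 to 3748.

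Glucosinolates are the sulfur-rich defence compounds of the cabbage family, and 4 of 24 listed genes of their synthesis could be measured. Of these 3 fell and 1 did not pass, with a median of -1.15. BCAT4, which starts the elongation of methionine for aliphatic glucosinolates, read 2081, 2996 and 2050 in Col-0 and 1012, 943 and 1178 in tt4, and fell by 1.17 ± 0.19 (adjusted p = 5.74e-05). GSTU20, a glutathione S-transferase listed with this pathway, read 1878, 2933 and 1761 in Col-0 and 902, 754 and 755 in tt4, and fell by 1.41 ± 0.21 (adjusted p = 2.39e-05). AT2G31790, a glucosyltransferase of the pathway, read 822, 725 and 673 in Col-0 and 294, 375 and 342 in tt4 (-1.14 ± 0.17). In each of the 3 the lowest Col-0 array lay above the highest tt4 array, and Col-0 replicate 2 was the highest for BCAT4 and GSTU20. UGT74B1, the general glucosyltransferase of glucosinolate synthesis, did not pass (-0.39 ± 0.16, adjusted p = 0.0819), but passed with quantile normalization (-0.45, adjusted p = 0.0464) and on the compared genotypes alone (-0.39, adjusted p = 0.0258). An additive model over all genotypes, without the place in the listing, also called it (-0.26, adjusted p = 0.0408). With the place in that model the sign of UGT74B1 turned (0.29, adjusted p = 0.962). AOP1, a relative of the oxygenases that modify glucosinolate side chains and named after its values were seen, fell by 1.30 ± 0.13, from 404, 373 and 324 to 153, 150 and 143.

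Both measured genes of the sulfur deficiency list fell as well. AT1G04770, a gene known to be induced by sulfur shortage, read 723, 705 and 695 in Col-0 and 157, 213 and 167 in tt4, and fell by 2.00 ± 0.13 (adjusted p = 3.83e-10). It was among the steadiest of the large differences, with arrays within each genotype close together. BGLU28, a glucosidase that releases sulfur from glucosinolates, read 90.5, 85.2 and 60.9 in Col-0 and 44.1, 45.1 and 32.3 in tt4 (-0.96 ± 0.31, adjusted p = 0.0269). That call was lost without Col-0 replicate 1 (-0.85, adjusted p = 0.105), without Col-0 replicate 2 (-0.89, adjusted p = 0.0866) and without tt4 replicate 3 (-0.80, adjusted p = 0.117).

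**Figure D2:**
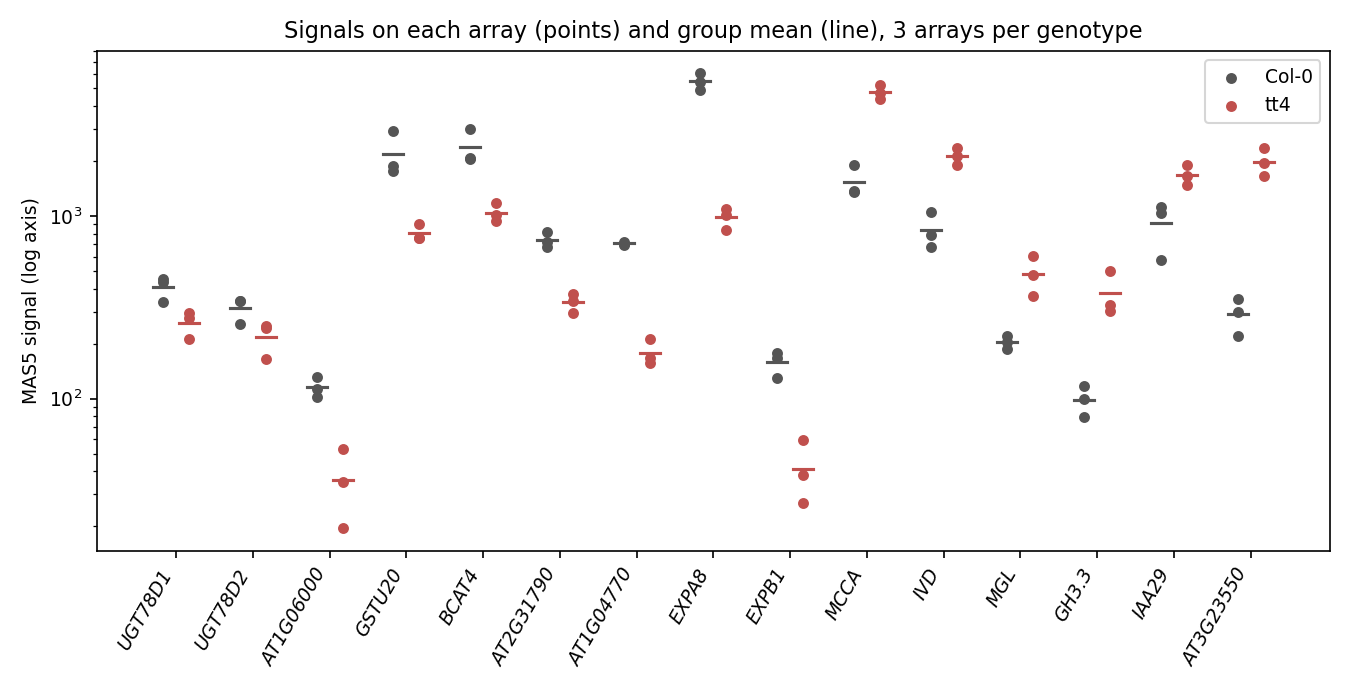
MAS5 signals (log axis) of 15 genes on the 3 Col-0 arrays (grey) and the 3 tt4 arrays (red), with the group mean as a line. The groups do not overlap for any of the genes drawn, and UGT78D1 and UGT78D2 show the smallest gaps.

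Most of the measured genes that break down leucine, valine and methionine were higher in tt4. Most of these enzymes are mitochondrial and feed carbon and electrons into respiration when sugar is short, and their transcripts are known as markers of carbon starvation and darkness. The list was put together after values were seen, so its counts are a description. Of 11 genes measured 7 rose and 1 fell, with a median of 0.498. MCCA, the biotin-carrying subunit of methylcrotonoyl-CoA carboxylase in leucine breakdown, read 1348, 1373 and 1895 in Col-0 and 4377, 4704 and 5181 in tt4, a rise of 1.64 ± 0.13 (adjusted p = 8.81e-09). IVD, the dehydrogenase of the preceding step, read 678, 783 and 1053 in Col-0 and 1895, 2128 and 2357 in tt4, a rise of 1.36 ± 0.15. ETFQO, which passes the electrons of these dehydrogenases to ubiquinone, read 453, 480 and 464 in Col-0 and 837, 969 and 957 in tt4 (0.98 ± 0.12). For the 3 genes every tt4 array stood above every Col-0 array. MGL, the cytosolic methionine gamma-lyase, rose by 1.22 ± 0.20, from 186 to 221 in Col-0 to 363 to 605 in tt4.

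Smaller rises were those of ALDH6B2 in valine breakdown (0.65 ± 0.08), of MCCB, the partner subunit of MCCA (0.50), and of ETFBETA, a subunit of the electron carrier upstream of ETFQO (0.25). AT2G26800, the lyase that ends leucine breakdown, fell by 0.24. These last calls, of ETFBETA and AT2G26800, held without tt4 replicate 2 (0.33, adjusted p = 0.00488, and -0.27, adjusted p = 0.0388) and were lost without any other array, at 0.17 to 0.26 (adjusted p up to 0.18) and -0.20 to -0.26 (adjusted p up to 0.143). ETFALPHA, the partner subunit of ETFBETA, was at 0.03 (adjusted p = 0.838). ATG8E, a tag of the membranes that enclose cargo in autophagy, rose by 0.55 ± 0.12 and was the only called gene of 9 autophagy genes. The other 8 had differences above 0 that did not pass, and the list's median was 0.154. ALDH7B4, an aldehyde dehydrogenase induced by stress, rose by 0.56 ± 0.09. Its family was mixed: of 8 aldehyde dehydrogenases 3 rose, 2 fell and 3 did not pass, with a median of 0.118.

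Expansins loosen the cell wall during growth, and single members moved far in both directions. Of 19 genes 3 rose and 4 fell, and the median was -0.389. EXPA8 read 6027, 5430 and 4909 in Col-0 and 1098, 841 and 1013 in tt4, and fell by 2.47 ± 0.12 (adjusted p = 1.04e-11) or 5.56-fold. EXPB1 read 167, 178 and 130 in Col-0 and 26.7, 59.5 and 38.1 in tt4 (-2.00 ± 0.31), and EXPB3 read 314, 320 and 207 against 136, 128 and 146 (-1.01 ± 0.18). No tt4 array of these 3 genes reached the lowest Col-0 array. EXPA16 rose by 2.24 ± 0.39 (adjusted p = 0.000166), from 11.3, 51.7 and 28.9 to 122, 110 and 132, a level below the median signal of the chip in both genotypes. The expansin-like gene EXLA1, named after its values were seen, rose by 0.89 ± 0.16. Among enzymes that cut and rejoin xyloglucan, 1 of 10 was called, XTH32, which fell by 0.90 ± 0.11. THE1, a receptor kinase that senses the state of the wall and that was named after its values were seen, rose by 1.01 ± 0.15 from 538, 529 and 530 to 1127, 1047 and 1041. CSLD2, a cellulose-synthase-like gene, rose by 0.56 ± 0.09. It was the only riser in its list of 8, where 1 gene fell and 6 did not pass, with a median of -0.12.

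Auxin-responsive genes lay higher in tt4 where they were called. GH3.3, which joins auxin to amino acids, read 79.7, 117 and 99.5 in Col-0 and 327, 303 and 502 in tt4, a rise of 1.91 ± 0.41 (adjusted p = 0.00141). IAA29, a repressor of auxin signalling, read 576, 1038 and 1122 in Col-0 and 1665, 1484 and 1906 in tt4 (0.94 ± 0.21, adjusted p = 0.00167). Col-0 replicate 1 was the lowest array for both genes, and the groups did not overlap for either. IAA18 rose by 0.43 ± 0.09. WES1, a relative of GH3.3, was at 0.59 ± 0.25 (adjusted p = 0.101) and GH3.1 at 0.65 ± 0.79 (adjusted p = 0.626). In the wider list of 7 Aux/IAA and related genes 2 rose and none fell, with a median of -0.0313.

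Of 3 evening clock genes measured, 2 rose. COR27, a cold-responsive gene of the evening, read 517, 784 and 823 in Col-0 and 4433, 3611 and 3982 in tt4, a rise of 2.53 ± 0.15 (adjusted p = 2.56e-10) or 5.76-fold. AT4G33980, which is listed with it, read 1434, 1720 and 2264 in Col-0 and 3788, 3317 and 3711 in tt4, a rise of 1.02 ± 0.16. Neither gene had overlapping groups. GI, the clock protein that links light to flowering, was at -0.23 ± 0.06 (adjusted p = 0.0105), a call lost without Col-0 replicate 3 (-0.20, adjusted p = 0.0522) or tt4 replicate 3 (-0.16, adjusted p = 0.0926). No gene of the morning clock could be named here, and the labels do not give the hour of harvest.

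The 3 measured genes for cold and drought protection went in both directions and hung on single arrays. COR15A, a chloroplast protectant, read 4311, 4301 and 4745 in Col-0 and 4227, 2011 and 2443 in tt4 (-0.69 ± 0.23, adjusted p = 0.0346), and COR15B read 7590, 7715 and 8570 against 7783, 4335 and 4870 (-0.54 ± 0.16, adjusted p = 0.018). COR47, a dehydrin, read 7405, 7809 and 8647 in Col-0 and 19189, 10465 and 10608 in tt4 (0.70 ± 0.22, adjusted p = 0.0216). For all 3 genes tt4 replicate 1 was the highest of the tt4 arrays, and for COR15B it overlapped with Col-0. Without that array COR15A was at -1.01 (adjusted p = 0.00199), but without any other array its call was lost, at -0.47 to -0.72 (adjusted p up to 0.209). COR15B lost its call without Col-0 replicate 3 (-0.48, adjusted p = 0.0689), tt4 replicate 2 (-0.37, adjusted p = 0.137) or tt4 replicate 3 (-0.45, adjusted p = 0.0907). COR47 lost its call without tt4 replicate 1 (0.41, adjusted p = 0.178), Col-0 replicate 1 (0.65, adjusted p = 0.0762) or Col-0 replicate 2 (0.69, adjusted p = 0.058).

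Transcripts of the chloroplast were lower as a group. Of 69 genes of the chloroplast genome, a list formed after values were seen, 37 fell and none rose, 67 had a difference below 0, and the median was -0.375 against -0.0558 over all named genes. The gene psbD, for the D2 protein of photosystem II, read 4748, 4857 and 6598 in Col-0 and 2858, 2115 and 2476 in tt4, and fell by 1.12 ± 0.16 (adjusted p = 2.37e-05). The gene ndhE, for a subunit of the plastid NDH complex that recycles electrons around photosystem I, read 3304, 4639 and 4510 in Col-0 and 2227, 1364 and 1897 in tt4 (-1.19 ± 0.26). The gene petL, for a small subunit of the cytochrome b6f complex, read 2656, 3164 and 3249 against 1483, 1472 and 1399 (-1.05 ± 0.18). None of the 3 overlapped between the genotypes. Most chloroplast transcripts lack a stable poly(A) tail, and the labels do not say how the RNA was primed.

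Nuclear genes for the same complexes pointed the same way. Of 7 genes for the plastid NDH complex, including factors that edit or assemble it, 5 fell and none rose, with a median of -0.577. CRR41, an assembly factor, read 723, 484 and 426 in Col-0 and 182, 252 and 188 in tt4, and fell by 1.37 ± 0.20 (adjusted p = 1.87e-05). CRR21, which edits an NDH transcript, read 515, 632 and 517 in Col-0 and 283, 300 and 289 in tt4, and fell by 0.92 ± 0.10. CRR28, a further editing factor, fell by 0.83 ± 0.19 and the subunit NdhS by 0.58 ± 0.14. All 3 tt4 arrays of CRR41, CRR21, CRR28 and NdhS lay below the Col-0 arrays. Of 5 photosystem and antenna genes 4 fell, by modest amounts such as 0.42 ± 0.09 for PSBY. PRK and SBPASE, enzymes of the carbon-fixing cycle, fell by 0.64 ± 0.08 and 0.48 ± 0.07, and RCA, the activase of Rubisco, was at -0.23 (adjusted p = 0.0715). CaS, a calcium-sensing protein of the thylakoid that was named after its values were seen, read 5933, 5084 and 4899 against 2834, 2559 and 2479 (-1.01 ± 0.09).

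Families that detoxify or decorate small molecules differed by member. Of 12 glutathione S-transferases 5 fell and none rose, with a median of -0.463, led by GSTU20 and followed by GSTU23 (-1.20 ± 0.30), GSTU18 (-0.83 ± 0.08) and GSTU16 (-0.72 ± 0.09). GSTU18 held 1653, 1643 and 1476 in Col-0 and 907, 871 and 895 in tt4, with a gap between the groups far wider than the spread within them. Of 43 UDP-glycosyltransferases 6 rose and 7 fell, with a median of 0.0419. UGT85A4 rose by 1.32 ± 0.14, from 219, 217 and 248 to 517, 643 and 546, and UGT76E11 fell by 1.18 ± 0.20, from 335, 323 and 230 to 154, 125 and 112. Of 24 cytochromes P450 2 rose and 5 fell. Over all named genes 10.7% rose and 9.73% fell, and these families were not set against genes of like signal. CYP71B26 fell by 1.66 ± 0.12, from 2071, 1762 and 1752 to 596, 600 and 568, while CYP71B23 of the same subfamily rose by 1.58 ± 0.20, from 151, 185 and 219 to 523, 508 and 609. CYP78A9, known for its effect on fruit growth, fell by 1.74 ± 0.18.

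Both glutathione reductases fell, the cytosolic GR1 by 0.52 ± 0.12 and the plastid GR by 0.45 ± 0.09. STZ, a zinc finger gene of oxidative stress, was at 0.09 (adjusted p = 0.944). VTC4, a phosphatase of vitamin C synthesis that was named after its values were seen, read 1204, 1087 and 913 in Col-0 and 451, 468 and 473 in tt4, and fell by 1.19 ± 0.12. SWEET13, a sucrose exporter of the phloem, and PUB26, a ubiquitin ligase, were also named after their values were seen and fell by 1.65 ± 0.22 and 1.32 ± 0.14.

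Of 7 bHLH transcription factors that could be named, most of them known from the control of iron, 2 rose, 2 fell and 3 did not pass. BHLH101, which is switched on when iron is short, read 115, 116 and 108 in Col-0 and 15, 18.1 and 39.5 in tt4, and fell by 2.35 ± 0.63 (adjusted p = 0.00777). The tt4 signals are dim, and they scattered more than those of Col-0. The factor bHLH34 fell by 0.85 ± 0.18. The factor bHLH121, a regulator of iron uptake, rose by 0.87 ± 0.13 from 686, 641 and 839 to 1231, 1448 and 1274, and bHLH104 rose by 0.37 ± 0.10.

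Of 6 jasmonate and defence genes 1 rose, 1 fell and 4 did not pass. AT5G05600, an oxygenase that inactivates jasmonate, read 73.5, 68.8 and 103 in Col-0 and 455, 291 and 457 in tt4, a rise of 2.29 ± 0.56 (adjusted p = 0.00387). ORA47, an AP2/ERF activator of jasmonate synthesis, read 510, 539 and 364 in Col-0 and 132, 138 and 177 in tt4 (-1.65 ± 0.42, adjusted p = 0.00529). The groups of both genes did not overlap. The defensin gene PDF1.2 was uneven within the wild type, at 858, 2232 and 727, and did not pass (0.63 ± 0.74, adjusted p = 0.609). The other 3 genes of the list, among them the glucanase gene AT4G16260 (1.00 ± 0.65, adjusted p = 0.308), did not pass.

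**Figure D3:**
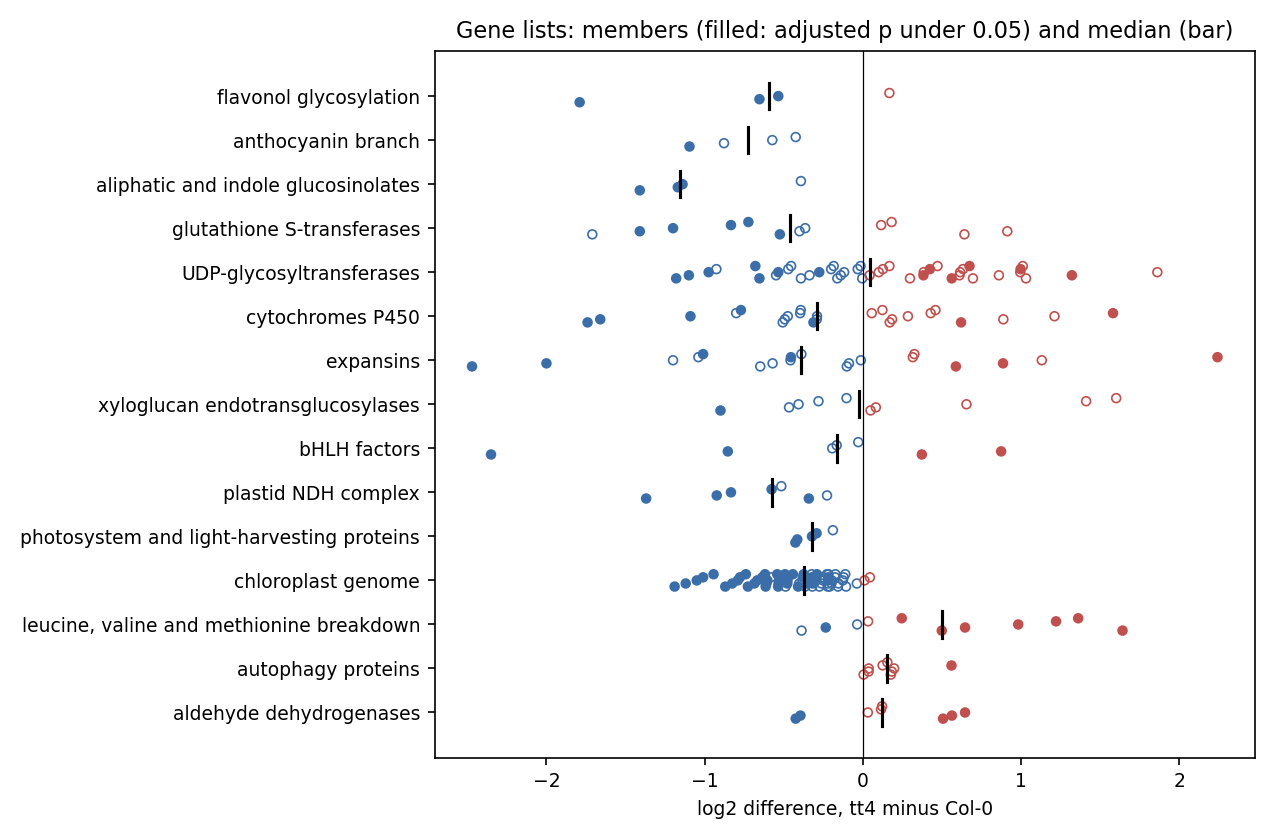
Log2 differences, tt4 minus Col-0, of the members of 15 gene lists. Filled points passed (adjusted p under 0.05), open points did not, red is above and blue below 0, and the black bar is the list's median. The chloroplast genome and amino acid breakdown lists were formed after values were seen, and the other lists with earlier results of these data known.

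The largest differences among genes above the median signal in at least 1 genotype fell partly outside these groups. AT1G13650 read 704, 578 and 569 in Col-0 and 50.8, 30.3 and 51.3 in tt4, and fell by 3.84 ± 0.24 (adjusted p = 3.83e-10). Its tt4 signals are dim and cannot be told from background, so no fold is given. It was followed downwards by AT1G60590 (-2.93 ± 0.30) and AT5G02230 (-2.60 ± 0.20). AT3G21670, a gene of the nitrate and peptide transporter family, read 2259, 1921 and 1822 in Col-0 and 605, 602 and 456 in tt4 (-1.86 ± 0.17). AT1G64380, an AP2/ERF factor, read 34.8, 58.0 and 58.3 in Col-0 and 420, 379 and 384 in tt4, a rise of 3.01 ± 0.25 (adjusted p = 1.06e-08). Its Col-0 signals are dim in the same way, and again no fold is given. AT3G23550, a transporter of the MATE family, read 221, 353 and 297 in Col-0 and 1948, 1648 and 2344 in tt4 (2.78 ± 0.40). All these genes had arrays that did not overlap, which the naming rule requires.

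The loss of CHS could also be read in the plants that overexpress a regulator. These comparisons share no array with tt4 or Col-0, but take the spread of each probe set from the same fit over 24 arrays. The calls are therefore not independent. These comparisons also run in the same direction of the listing. Their spans of the listing are shorter. Col-0 holds places 1 to 3 and tt4 places 22 to 24. MYB12OX holds 4 to 6 and MYB12OX/tt4 16 to 18, and pap1-D holds 7 to 9 and pap1-D/tt4 19 to 21. MYB12OX/tt4 against MYB12OX gave 2233 calls (9.82%) and pap1-D/tt4 against pap1-D gave 2454 (10.8%). Of the 5176 probe sets called between tt4 and Col-0, 1941 (37.5%) were called in the same direction in the first, which is 86.9% of its calls, and 1944 (37.6%) in the second, which is 79.2% of its calls. Only 2 and 4 were called in the opposite direction. In all 3 comparisons 1286 probe sets (5.65%) were called the same way, 590 higher (2.59%) and 696 lower (3.06%).

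Among these were AT1G13650 (-2.73 in the MYB12OX and -3.07 in the pap1-D plants), AT1G04770 (-1.88 and -1.48) and EXPB1 (-2.26 and -2.17). AT3G23550 rose by 1.38 and 2.39, UGT85A4 by 0.97 and 1.24, COR27 by 1.84 and 1.40 and MCCA by 1.10 and 0.99. The chloroplast gene psbD was at -0.78 and -0.96. Other genes passed in only some comparisons. AT1G06000 was at -1.18 in the MYB12OX plants (adjusted p = 0.0248) and at 0.09 in the pap1-D plants (adjusted p = 0.919), and GH3.3 was at 1.19 (adjusted p = 0.0732) and 1.24 (adjusted p = 0.057).

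**Figure D4:**
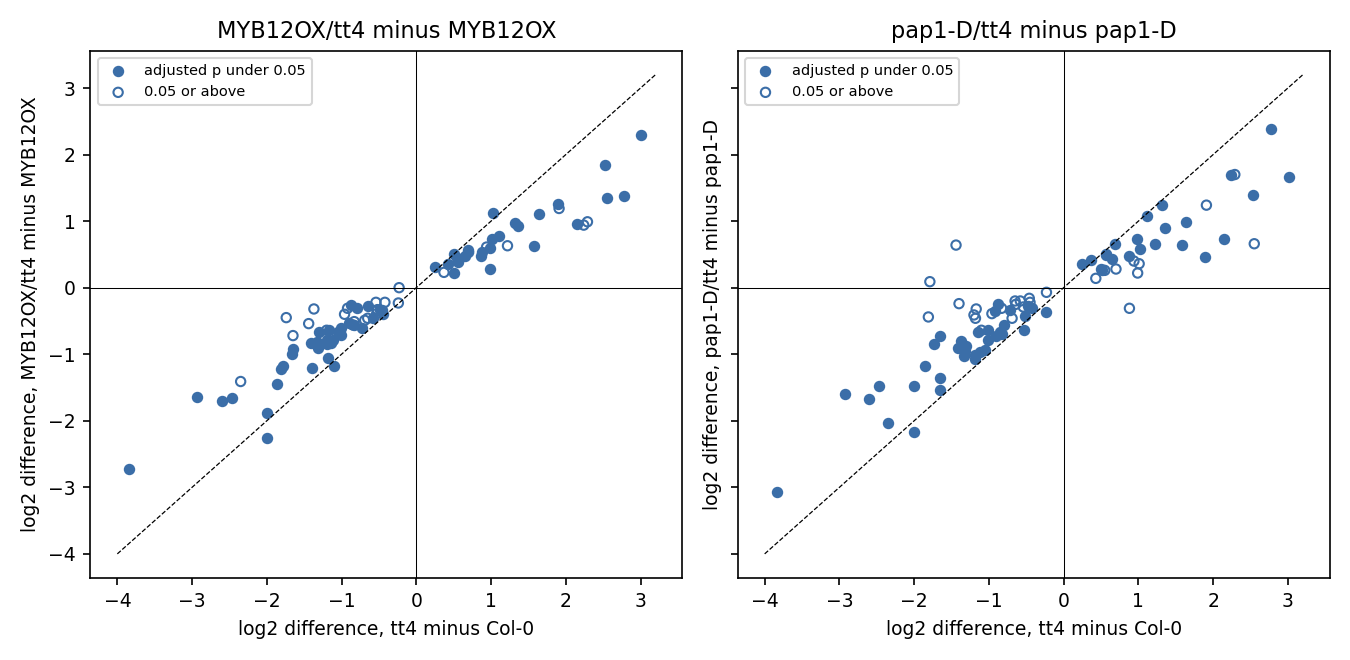
Genes named here that were called between tt4 and Col-0 (x axis, log2 difference), against the log2 difference MYB12OX/tt4 minus MYB12OX (left) and pap1-D/tt4 minus pap1-D (right). Filled points passed in the comparison on the y axis. The dashed line marks equal differences, and the genes were chosen by the x axis, which favours larger values there. The genotypes on the x axis also lie further apart in the listing than those on each y axis.

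The difference between the backgrounds was tested itself, as an interaction. Since tt4 and Col-0 lie further apart in the listing than either other pair, background and listing span cannot be told apart here. The interaction was called for 14 probe sets (0.0615%) between the Col-0 and MYB12OX backgrounds and for 130 (0.572%) between the Col-0 and pap1-D backgrounds. Of the former 5 were higher (0.022%) and 9 lower (0.0396%) in the Col-0 background. Of the latter 78 were higher (0.343%) and 52 lower (0.229%); with each array centred on its median these became 6 and 4, and 95 and 29. Unadjusted p-values under 0.05 were met by 1937 and 2531 probe sets. EXPA8 fell more in the Col-0 background than in that of pap1-D, by -0.99 ± 0.17 (adjusted p = 0.00726). Its mean was 5455 in Col-0 and 984 in tt4, but 2736 in pap1-D and 979 in pap1-D/tt4. The means without CHS lay close together and those with CHS apart. AT3G59350 showed the same upwards, from 1215 to 4467 in the Col-0 background and from 3562 to 4925 in that of pap1-D (1.43 ± 0.20, adjusted p = 0.0024). Without Col-0 replicate 1 the counts were 2 and 43.

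Across all 8 genotypes, 2 kinds of course could be seen. EXPA8 and COR27 already moved among lines that carry CHS. MCCA did so too: its mean went from 1539 in Col-0 through 1928, 2397, 2880 and 3682 in the lines MYB12OX, pap1-D, WOX1-1 and WOX1-2, and stood at 4110, 4780 and 4754 in MYB12OX/tt4, pap1-D/tt4 and tt4. For genes of the other kind the genotype means were close together with CHS and apart from those without it. AT1G74790 and psbD, named after their values were seen, are examples. AT1G74790 averaged 384, 362, 369, 374 and 404 where CHS is present, in listing order, and 532, 580 and 621 where it is lost. The gene psbD averaged 5401, 5363, 5441, 4967 and 5125 with CHS and 3213, 2755 and 2483 without. Its single arrays overlapped, since MYB12OX/tt4 replicate 1 read 4384 and pap1-D replicate 3 read 4203.

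On 128 probe sets (0.563%) all 9 arrays without CHS lay above all 15 with it, and on 105 (0.462%) below. These sets, which were formed after values were seen, hold 64 and 49 named genes. AT2G33170 was among the former, with no array over 179 among those with CHS and none under 217 among those without, and AT3G23550, with 953 and 1060 as the nearest arrays. BETA-VPE, a vacuolar processing protease, was among the latter, at 167 or above with CHS and 150 or below without. Its mean already fell among lines with CHS, from 277 in Col-0 to 189 in WOX1-2, and stood at 110 in tt4. EXPA8 also met this split, with nearest arrays of 1260 and 1240, although most of its fall lay among the lines with CHS. Since the 9 arrays without CHS are also the last 9 of the listing, a step at that point and the loss of CHS cannot be told apart.

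**Figure D5:**
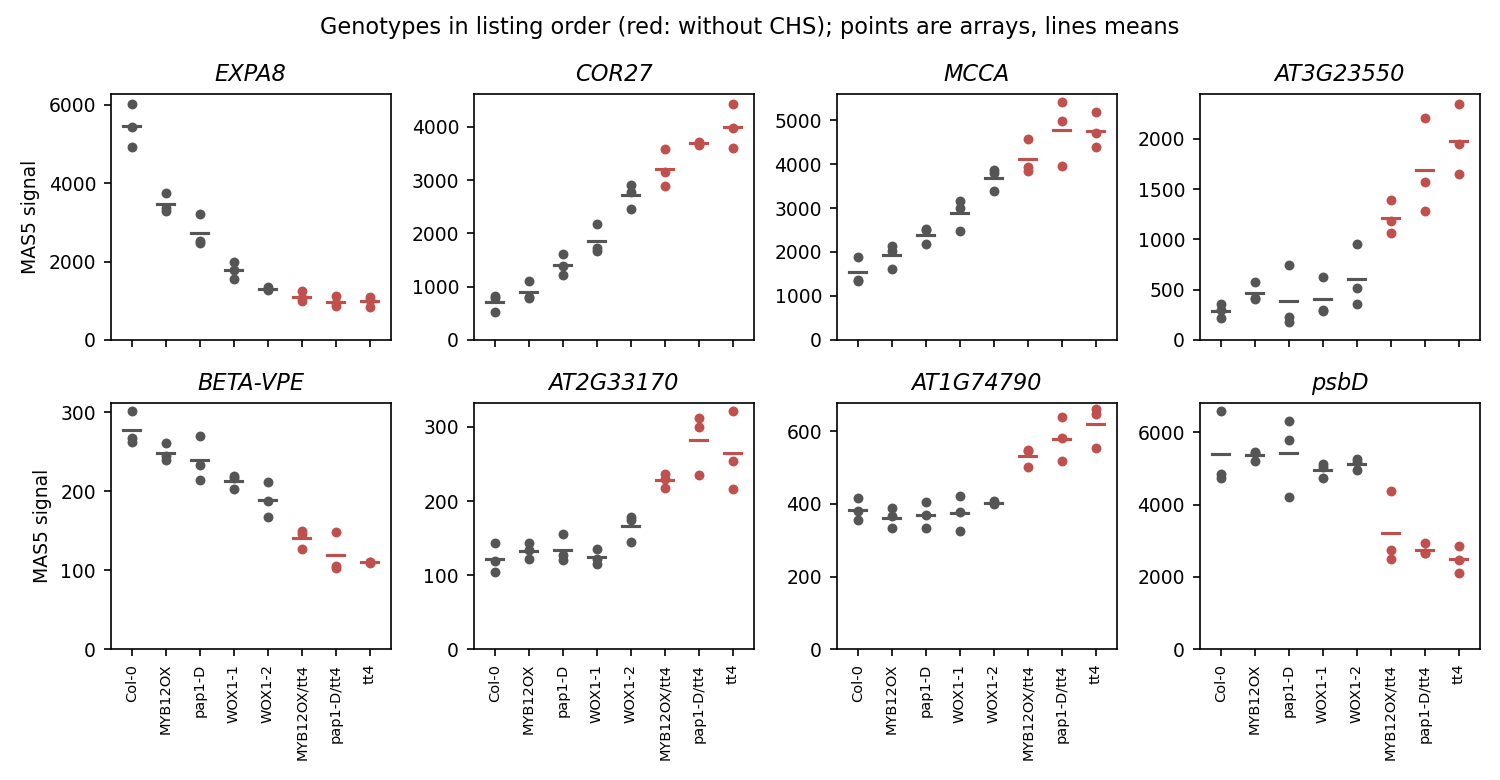
MAS5 signals of 8 genes on the 24 arrays (points), with genotype means (lines), in listing order; red marks genotypes without CHS. EXPA8, COR27 and MCCA change steadily from the left, while AT1G74790, AT2G33170 and psbD have genotype means that stay close up to WOX1-2 or WOX1-1 and then step, with overlapping arrays for psbD.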

How the data were processed

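Total RNA of aerial parts was measured on 24 ATH1 arrays. The deposited table gives 1 signal intensity per probe set on a linear scale. Per the submitters' processing notes MAS5 produced it, in a version not given in the sources used here. On each array the trimmed mean signal was 500, so a shift of most genes in 1 direction would not show. Detection calls are not part of the table, so dim signals and background are not separable, and the number of arrays limits the precision.

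Of 22810 probe sets 64 controls were left out. The log2 of each signal, with no offset or filter, entered 1 linear model with a mean per genotype over all 24 arrays (lmFit and eBayes of limma 3.58.1 under R 4.3.3, with a trend of the variance on the mean signal and 16 residual degrees of freedom). Tests were two-sided, with Benjamini-Hochberg adjustment over 22746 probe sets and a threshold of 0.05. Without an offset, dim probe sets have large and noisy log2 differences. The procedure was tested on simulated data with independent noise. That simulation held no drift along the listing and no replicate effect, so it does not bear on either.

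Gene names came from the platform's probe table, updated through RefSeq genes (assembly TAIR10.1), whose table served only to name genes. A single gene was listed for 13513 probe sets, of which 13436 matched, several for 503 and none for 8730. A gene is represented by its brightest probe set. Of 58 gene lists 38 had a measured member, with 232 genes in all, of which 27 rose and 57 fell. Family lists were matched on symbols and synonyms, so they are incomplete. The members and lists were chosen with earlier results of these data known. The naming rule took up to 4 of the largest called genes per list, all members of lists of up to 6 genes, the 16 largest rises and falls above the median signal whose arrays do not overlap, and up to 4 genes in each direction per interaction. The text gives a part of these, and genes named after their values were seen are marked. A further part of the rule, genes called in all 3 losses of CHS and in an additive model with the place in the listing, was met by 0 genes.

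Whether replicate numbers pair arrays was looked at for Col-0 and tt4 only, and the main model has no term for the number. The correlation of the deviations from the group means was 0.157, -0.108 and 0.00399 for the same-numbered arrays. For the other pairs it was -0.148 to 0.18. A replicate block raised the interaction calls from 14 to 104 (MYB12OX) and from 130 to 298 (pap1-D). On the first principal component the array numbered 3 lay above that numbered 1 in each genotype. Alternatives were an offset of 42.8, a filter (signal above 85.5 on at least 3 arrays), both, quantile normalization, median centring, the compared genotypes alone, no trend, array weights, the replicate number as a block, the place in the listing as a covariate, additive models, and each array left out.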

Additional observations from a re-analysis of the deposited data

Results flagged for a closer look

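The interaction terms give where the difference between plants without and with CHS was unequal between backgrounds. Each value here is the log2 difference tt4 minus Col-0 less the same difference in plants that overexpress a regulator. Because tt4 and Col-0 also lie further apart in the listing than the other pairs, background and listing span cannot be told apart. Between the Col-0 and MYB12OX backgrounds 14 probe sets were called. AT2G30990 differed by 0.71 (adjusted p = 0.0302), AT1G73170 by -0.63 (adjusted p = 0.0296) and AT2G29310 by -0.50 (adjusted p = 0.0452). Without limma's intensity trend 0 probe sets were called for this interaction, so these calls were lost; with the trend 1937 had an unadjusted p under 0.05. With 1 array left out 2 to 54 were called. AT1G73170 averaged 1953 in Col-0 and 1058 in tt4, but 1531 in MYB12OX and 1279 in MYB12OX/tt4.

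Between the Col-0 and pap1-D backgrounds 130 probe sets were called. AT5G25440 differed by 1.89 (adjusted p = 0.0244), AT3G59350 by 1.43, AT1G72060 by 1.42 (adjusted p = 0.00726) and EXO, a growth gene that responds to brassinosteroids, by 1.41 (adjusted p = 0.0295). EXO averaged 1136 in Col-0 and 1559 in tt4, but 3558 in pap1-D and 1883 in pap1-D/tt4, and its difference between tt4 and Col-0 did not pass (0.52, adjusted p = 0.0792). AT1G20070 differed by -2.08 (adjusted p = 0.0375), AT5G01790 by -1.37 (adjusted p = 0.00595), AT5G02830 by -1.16 (adjusted p = 0.0435) and EXPA8 by -0.99. AT1G20070 averaged 207 in Col-0 and 74.5 in tt4, against 52.3 in pap1-D and 72.8 in pap1-D/tt4. Without the trend 42 probe sets were called, and with 1 array left out 43 to 191. With the place in the listing as a covariate 5 probe sets were called for this interaction and 28 for that with MYB12OX.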

How the results depend on the processing

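The 5176 calls between tt4 and Col-0 became 5045 to 5710 under the offset, the filter, both, quantile normalization, median centring, array weights and the replicate block, 4449 on these genotypes alone, 4888 without the trend, 7020 in an additive model and 4062 to 4698 with 1 array left out. The 84 calls in the gene lists became 69 to 82 with 1 array left out. A replicate block gave 5447 calls for tt4 against Col-0, and 104 (MYB12OX) and 298 (pap1-D) for the interactions. What same-numbered arrays share beyond the number was not tested, and not every array correlated best with its own. The interaction with MYB12OX gave 40 calls with offset and filter, 0 without the trend (1937 unadjusted with it), 54 with array weights, and 2 to 54 with 1 array left out. That with pap1-D gave 45 on the compared genotypes alone, 42 without the trend and 43 to 191 with 1 array left out.

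With the place in the listing as a covariate 42 probe sets and 0 list genes were called between tt4 and Col-0 (11.7% at an unadjusted p under 0.05), and the interactions gave 28 and 5. An additive model with the place gave 2 probe sets and 0 list genes (6% unadjusted). The cause was not tested, and the larger SE (5.31 and 1.5 residual standard deviations against 0.816 and 0.471) follows from fitting the place. With the covariate the sign turned for ALDH2C4 (-0.23), ALDH6B2 (-1.22), ALDH7B4 (-0.33), AT1G06000 (0.54), AT1G20070 (2.89), AT1G60590 (3.28), AT1G72060 (-1.4), AT2G26800 (0.39), AT2G31790 (1.41), AT3G21670 (2.54), AT4G14090 (3.16), AT4G16260 (-0.94), AT4G33980 (-1.61), AT5G25440 (-0.93), ATG8E (-0.79), BCAT4 (1.42), BGLU28 (1.27), CHIL (2.59), COR15A (1.56), COR15B (1.57), COR27 (-0.24), CRR41 (1.38), CYP71B23 (-0.08), CYP71B26 (0.92), CaS (1.06), ETFBETA (-0.08), ETFQO (-1.77), EXO (-1.47), EXPA16 (-0.09), GH3.3 (-4.38), GI (0.13), GR (1.04), GR1 (0.28), GSTU18 (0.43), GSTU20 (1.81), HCT (0.32), IAA18 (-0.84), IAA29 (-3.8), IVD (-2.17), MCCA (-1.72), MCCB (-0.98), MGL (-2.25), ORA47 (4.9), PSBY (0.43), RCA (0.11), SBPASE (0.59), THE1 (-1.76), UGT74B1 (0.68), UGT76E11 (1.81), UGT78D1 (0.83), UGT78D2 (0.02), UGT85A4 (-1.01), VTC4 (1.44), WES1 (-4.8), XTH32 (0.54), bHLH121 (-2.26), ndhE (2.32). In the additive model with the place it turned for ALDH2C4 (-0.11), AT1G06000 (0.53), AT1G20070 (1.53), AT1G60590 (0.69), AT1G72060 (-0.97), AT1G73170 (0.4), AT2G29310 (0.01), AT2G30990 (-0.39), AT2G31790 (0.03), AT3G59350 (-0.11), AT4G14090 (1.34), AT5G01790 (0.38), AT5G02830 (0.2), AT5G25440 (-1.04), ATG8E (-0.05), BCAT4 (0.18), BGLU28 (0.37), COR15B (0.26), CRR21 (0.36), CRR28 (0.15), CRR41 (0.46), CYP71B23 (-0.79), CYP71B26 (0.21), CYP78A9 (0.53), EXLA1 (-0.55), EXO (-1.53), GH3.1 (-0.77), GH3.3 (-0.08), GI (0.23), GR (0.06), GSTU23 (0.11), HCT (0.13), IAA18 (-0.02), IAA29 (-0.57), IVD (-0.09), MCCA (-0.06), MGL (-0.33), ORA47 (0.36), PRK (0.08), SBPASE (0.04), STZ (-0.65), THE1 (-0.2), UGT74B1 (0.29), UGT76E11 (0.2), UGT78D1 (0.25), UGT78D3 (-0.37), WES1 (-0.69), bHLH121 (-0.22). In the additive model without it, genes that had not passed turned sign: EXO (-0.28), GH3.1 (-0.04), STZ (-0.55), UGT78D3 (-0.16). Leaving out 1 array turned 5 genes that had not passed: DFR (0.21 without Col-0 replicate 2, 0.26 without tt4 replicate 1), STZ (-0.06 without Col-0 replicate 3, -0.01 without tt4 replicate 3), UGT78D3 (-0.51) and AT5MAT (0.03) without tt4 replicate 1, and AT4G14090 (0.13) without tt4 replicate 2. Over the 6 such fits they ranged from -0.94 to 0.26, -0.06 to 0.21, -0.51 to 0.81, -1.35 to 0.03 and -1.08 to 0.13 in that order. On the compared genotypes alone 8 genes lost their call: UF3GT (adjusted p = 0.072), BGLU28 (0.0596), COR15A (0.0506), COR15B (0.0684), UGT78D2 (0.0734), AT2G26800 (0.0533), GI (0.0724) and ETFBETA (0.0858). With the filter RCA passed (-0.23, adjusted p = 0.0247). Dim genes such as UGT78D3 and DFR cannot be told from background.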
